A study of Rattus norvegicus with 16 samples.

Results

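The clock output factors examined here were 7 genes of the circadian clock, measured in the heart of rats fed phenformin. They were the PAR bZIP activators Dbp, Tef and Hlf, the bZIP repressor Nfil3, the basic helix-loop-helix repressors Bhlhe40 and Bhlhe41, and the repressor Ciart. The members were named by symbol, and each stood for its brightest probe set among those with a single gene symbol. All 7 were found among the 22093 genes measured, each with 1 probe set.

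The tissue was the apex of the left ventricle from male Wistar rats (RccHan:WIST), bought at 7 to 8 weeks of age and kept under a 12 h light-dark cycle with 2 or 3 animals in a cage. Phenformin, a biguanide that lowers blood glucose and inhibits mitochondrial complex I, was mixed into the chow at 3000 ppm for 3 or 14 days, and control rats (0 ppm) ate untreated chow for the same time. RNA of 16 rats was hybridised to 16 arrays, which gave 4 groups of 4 arrays that the labels call biological replicates: day 3 control, day 3 phenformin, day 14 control and day 14 phenformin. The protocol names 5 animals per group, and 4 arrays per group were analysed here. The hour of the day at which the rats were killed and the cages they shared are not given in the sources used here.

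The circadian clock is a transcriptional loop in which the activators CLOCK and BMAL1 bind E-box sequences and drive their own repressors, the PER and CRY proteins. The same loop drives output factors that carry the rhythm to other genes. DBP, TEF and HLF activate genes through D-box sequences, and NFIL3 binds the same sequences and represses them. BHLHE40, BHLHE41 and CIART bind back on CLOCK and BMAL1 or their E-boxes as repressors. In mammals, the receptors REV-ERB alpha and REV-ERB beta (genes Nr1d1 and Nr1d2) are known to repress Nfil3 through ROR elements.

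Promoter sequences are shown for Nfil3, the member that passed the test, for Bhlhe41, whose treated arrays of day 14 split, and for Ciart, which holds the most E-boxes of the 6 members searched. Each runs 5′ to 3′ from 250 bases before to 50 bases after the start site in RefSeq (build GRCr8), and capitals mark the E-box CACGTG.

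Nfil3 (GRCr8, chr17:12432126-12432425, plus strand): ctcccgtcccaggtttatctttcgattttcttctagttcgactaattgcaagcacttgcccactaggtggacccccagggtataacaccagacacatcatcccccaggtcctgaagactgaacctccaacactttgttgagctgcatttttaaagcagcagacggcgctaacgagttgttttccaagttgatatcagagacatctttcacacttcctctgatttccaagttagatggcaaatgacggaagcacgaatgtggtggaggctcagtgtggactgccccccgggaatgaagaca

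Bhlhe41 (GRCr8, chr4:180569306-180569605, minus strand): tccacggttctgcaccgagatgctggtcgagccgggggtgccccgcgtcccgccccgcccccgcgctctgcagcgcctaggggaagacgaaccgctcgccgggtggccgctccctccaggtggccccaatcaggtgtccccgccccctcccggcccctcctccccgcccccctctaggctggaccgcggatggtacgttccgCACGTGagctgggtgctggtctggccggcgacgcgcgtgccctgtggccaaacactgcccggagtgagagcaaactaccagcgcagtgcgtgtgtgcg

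Ciart (GRCr8, chr2:186112197-186112496, minus strand): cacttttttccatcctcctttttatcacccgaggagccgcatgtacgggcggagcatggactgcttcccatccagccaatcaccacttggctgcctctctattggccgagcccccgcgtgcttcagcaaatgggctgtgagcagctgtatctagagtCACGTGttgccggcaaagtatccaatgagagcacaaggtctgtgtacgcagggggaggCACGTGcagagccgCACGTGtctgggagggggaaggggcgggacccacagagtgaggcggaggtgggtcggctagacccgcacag

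The RefSeq table of 33469 promoters held 6 of the 7 members, all but Hlf. The E-box CACGTG, which reads the same on both strands, stood in 4 of these 6: once in Tef, Bhlhe40 and Bhlhe41 and 3 times in Ciart, while 6.42% of all promoters of 300 bases held it. Of the 2 clock lists described below, it stood in 3 of 7 other clock output genes and 0 of 11 core clock genes found in the table of promoters. Relative to the start site the E-box began at -48 in Bhlhe41 and at -93, -35 and -21 in Ciart. The D-box TTANGTAA was in 0 of the 6, against 2.24% of all promoters, searched on both strands. The ROR element, searched as AAAGGTCA, ATAGGTCA, TAAGGTCA or TTAGGTCA on both strands, was likewise in 0 of the 6, against 3.31% of all promoters. These are matches of letters in a short window only, in the first promoter listed for each named gene.

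Levels below are the log2 of the deposited array intensity. Array medians over all probe sets lay between 4.94 and 5.13, and the 99th percentiles lay between 16.93 and 17.79. Correlations between arrays over the 22093 genes lay between 0.989 and 0.995. Markers of heart muscle cells were bright on every array, with a mean of 9 markers between 17.61 and 17.70, while neutrophil and fat cell markers had means of at most 4.91, below every array median. Ciart was dim, with a mean of 4.92 that lay below the array medians. Nfil3 (mean 6.03) and Hlf (5.71) lay near the median gene, at 6.02. Bhlhe40, at 12.34, was brighter than 95.3% of genes. Brightness also depends on the probes, so levels were not compared between genes. With 4 arrays a group, their number sets the precision. Day 3 control replicates 2 and 3 lay farthest from the other arrays on the first 2 principal components, and calls that were lost without them are named as such.

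Of the 7 members, Nfil3 alone passed the test of phenformin against control, on day 3 and over both days together, and it fell, while 0.566% and 1.21% of all genes passed in these comparisons. In bulk tissue such as this, fewer cells of a type and less RNA per cell cannot be told apart. On both days its phenformin arrays lay wholly below its control arrays. Dbp and Bhlhe41 had their highest group means on day 14 in treated hearts without passing the test. Hlf had lower means in treated hearts on both days, also without passing. Tef, Bhlhe40 and Ciart had changes whose 95% confidence intervals (CI) held 0 at each day. Changes are phenformin minus control on the log2 scale, each with a standard error (SE) from limma's fit over 16 arrays, and an adjusted p under 0.05 over all genes counts as passing.

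**Figure D1:**
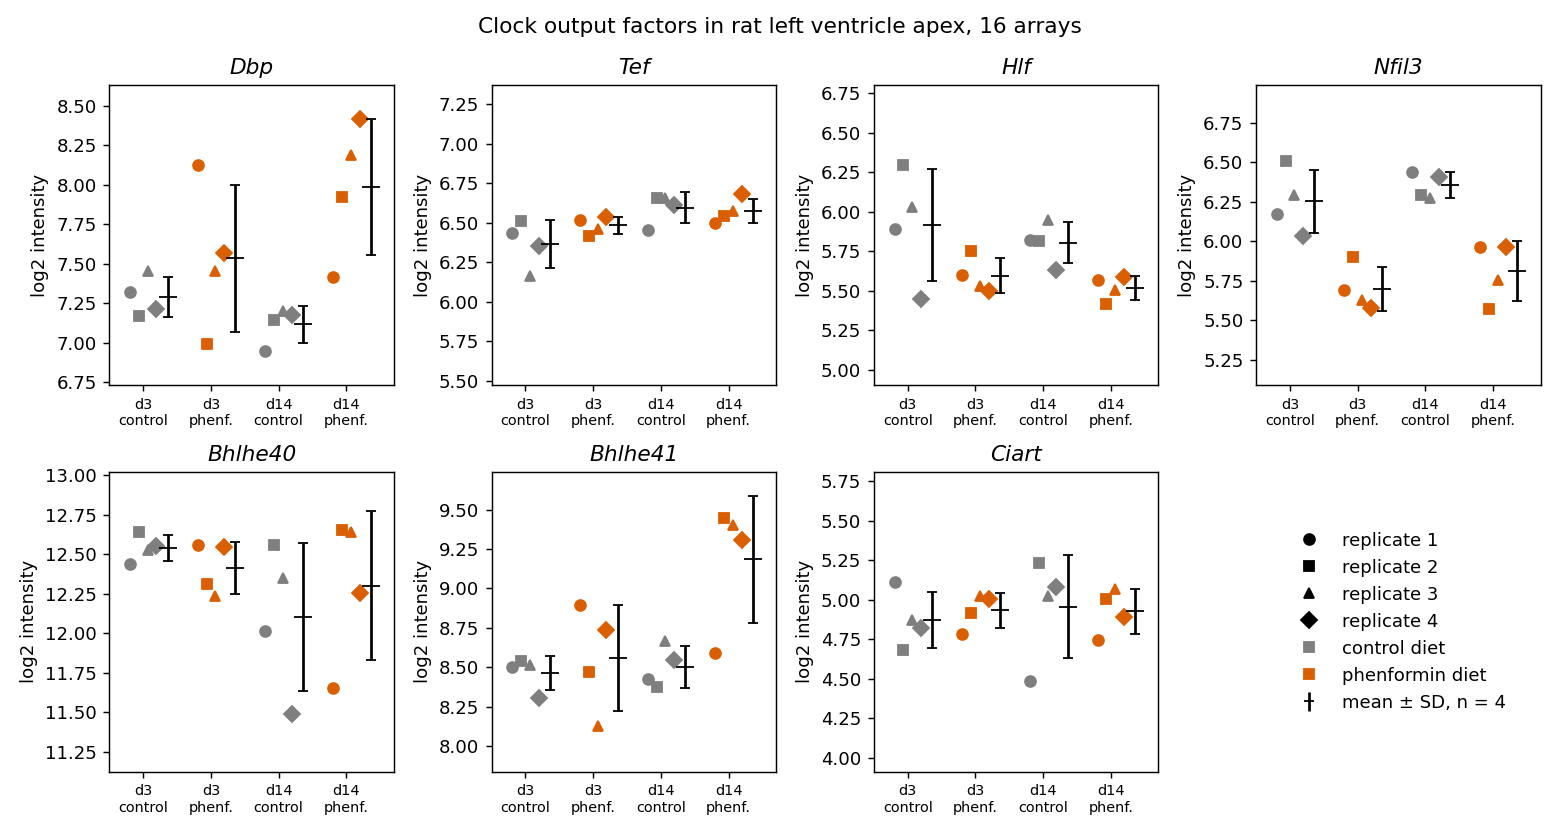
Level of each clock output factor (log2 intensity) on each of the 16 arrays, in 4 groups of 4, with the group mean and SD beside the points; grey is the control diet and orange is phenformin. Each panel spans the same number of log2 units. The treated Nfil3 arrays lie between 5.57 and 5.97, all below the control arrays, which lie between 6.04 and 6.51.

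Nfil3 encodes a repressor of D-box genes and is also known for its part in immune cell development. On day 3 its control arrays read 6.17, 6.51, 6.30 and 6.04, and its phenformin arrays read 5.69, 5.90, 5.63 and 5.58. On day 14 the control arrays read 6.44, 6.30, 6.28 and 6.41, and the phenformin arrays read 5.97, 5.57, 5.76 and 5.97. The highest treated array was thus below the lowest control on each day, with the narrowest gap on day 3 between control replicate 4 and phenformin replicate 2. The group means were 6.25 ± 0.201 and 5.70 ± 0.14 on day 3 (SD, n = 4), and 6.36 ± 0.0818 and 5.82 ± 0.19 on day 14 (SD, n = 4).

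On day 3 the Nfil3 change was -0.55 (SE 0.111, adjusted p = 0.0306), a level 1.47-fold lower. It was 1 of 7 members past the test on that day, when 0.566% of all genes passed and 0.462% passed as lower. On day 14, in other animals, its change was -0.54 (SE 0.111, 95% CI -0.77 to -0.31), which missed the threshold with adjusted p = 0.0679. On day 14, 0 of the 7 members passed limma's test, against 0.0724% of all genes. An unadjusted p under 0.05 was found for 4 of the 7 and for 10.8% of all genes. The Nfil3 changes of the days differed by 0.014 (SE 0.157, 95% CI -0.32 to 0.35), and this difference did not pass the test.

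Averaged over both days, the Nfil3 change was -0.55 (SE 0.0783, 95% CI -0.71 to -0.38, adjusted p = 0.00449), which is the 14th smallest p of the 22093 genes. In this comparison 1 of 7 members passed, against 1.21% of all genes and 0.883% as lower. The call held without each of the 16 arrays in turn, with changes between -0.58 and -0.50 and adjusted p between 0.00242 and 0.0135. The day 3 call was less steady: it was lost without day 3 control replicate 1, 2 or 3 and without day 3 phenformin replicate 1, 3 or 4, with adjusted p of up to 0.109 and changes between -0.58 and -0.47. Without both day 3 control replicates 2 and 3 the change was -0.41 on day 3 (adjusted p = 0.478) and -0.47 over both days (adjusted p = 0.0309). That fit called 3 of the 22093 genes on day 3 and 33 over both days.

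**Figure D2:**
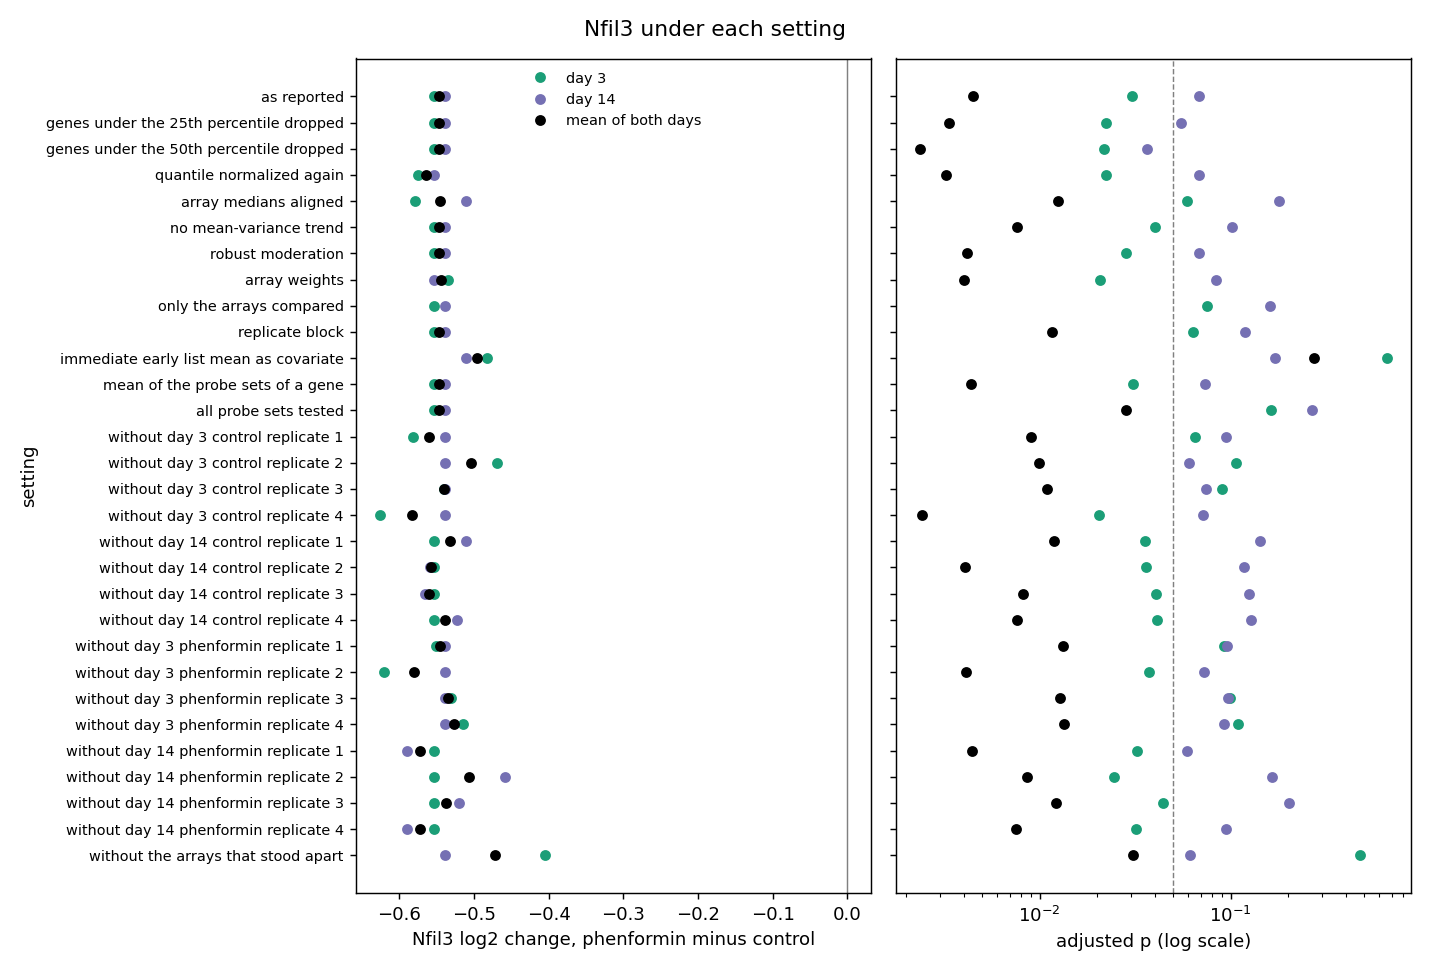
Nfil3 under each setting: the left panel gives the log2 change (phenformin minus control) and the right panel the adjusted p on a log axis, with a dashed line at 0.05. Green points are day 3, violet points day 14 and black points the mean of both days; each row is 1 setting or 1 array left out. The change stays below 0 in every row shown, and the black points lie above 0.05 only with the immediate early list as a covariate (adjusted p = 0.273).

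Immediate early genes, which respond to a stimulus within minutes, had a lower list mean in the treated than in the control group on each day. The mean of 29 measured genes of that list lay between 7.17 and 8.40 in day 3 controls and between 6.85 and 7.08 in day 3 phenformin arrays. It lay between 7.15 and 7.72 in day 14 controls and between 6.79 and 7.31 in day 14 phenformin arrays. The groups were thus apart on day 3, when 28 of the 29 genes had changes below 0 and 3 fell past the test, and overlapped on day 14. On day 14, 23 of the 29 had changes below 0 and 0 passed. Over both days together 6 of the 29 fell past the test, against 0.883% of all genes. Within groups, the deviations of Nfil3 followed those of this list little (r = 0.17 over 16 arrays), and those of Hlf more (r = 0.52). With the list mean as a covariate the Nfil3 change was -0.48 on day 3 (adjusted p = 0.659) and -0.50 over both days (adjusted p = 0.273), in a fit that called 3 of the 22093 genes over both days.

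Markers of some other cells moved as well. The mean of 8 fibroblast markers lay between 12.30 and 12.74 in day 3 controls and between 11.49 and 12.21 in day 3 phenformin arrays, and the day 14 ranges overlapped (11.65 to 12.26 and 11.39 to 12.14). The mean of 6 red blood cell markers lay between 9.96 and 10.36 in day 3 controls against 9.48 and 9.95 with phenformin, and between 9.56 and 10.78 against 8.83 and 9.59 on day 14, ranges that overlapped slightly. The mean of 6 platelet markers was apart on day 14 only, between 6.08 and 7.06 in controls and 5.33 and 6.02 with phenformin. On each day, all 6 red blood cell markers had changes below 0 and 0 of the 6 passed. Of the fibroblast markers, 8 of 8 on day 3 and 7 of 8 on day 14 had changes below 0, and 0 passed on either day. The mean of 9 heart muscle markers lay between 17.611 and 17.643 in day 3 controls, and 17.643 and 17.699 with phenformin. Its day 14 ranges overlapped (17.638 to 17.679 and 17.642 to 17.671), and 0 of the 9 passed on either day. The ranges of endothelial, smooth muscle, macrophage, neutrophil, lymphocyte, fat cell, atrial and skeletal muscle markers overlapped on both days. Those of the macrophage markers overlapped only slightly on day 3 (7.625 to 7.925 in controls, 7.391 to 7.659 with phenformin). All 8 macrophage markers then had changes below 0 (median -0.298), against 4 of 8 on day 14, and 0 passed on either day. Over both days together, 2 of the 6 red blood cell markers fell past the test, and 1 of 4 atrial markers rose past it. No marker of the other cell lists passed in that comparison, when 1.21% of all genes did. The part of any of these lists in the changes of the members was not tested.

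**Figure D3:**
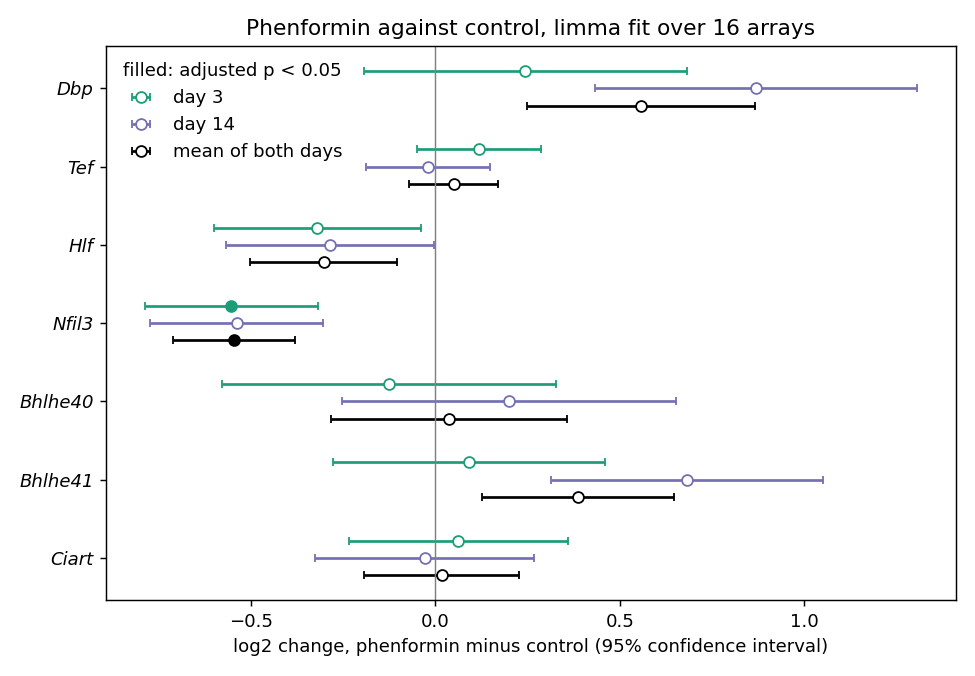
Change of each clock output factor (log2, phenformin minus control) with its 95% confidence interval on day 3, on day 14 and averaged over both days. Filled points passed the test (adjusted p under 0.05). Both filled points belong to Nfil3, at -0.55 on day 3 and -0.55 over both days.

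Dbp, a PAR bZIP factor whose level swings widely over the day in rodent tissues, spread more widely among treated than among control arrays. On day 3 its control arrays read 7.32, 7.17, 7.46 and 7.21, and its phenformin arrays read 8.13, 6.99, 7.46 and 7.57. Treated replicate 1 was above all controls and treated replicate 2 below them all. On day 14 the control arrays read 6.95, 7.14, 7.20 and 7.17, and the phenformin arrays read 7.42, 7.92, 8.19 and 8.42, each of them above every control. The SD was 0.128 in day 3 controls and 0.116 in day 14 controls, but 0.467 and 0.431 in the treated groups (n = 4 each).

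The change of Dbp was 0.24 on day 3 (SE 0.206, 95% CI -0.19 to 0.68) and 0.87 on day 14 (SE 0.206, 95% CI 0.43 to 1.31, adjusted p = 0.124). Over both days it was 0.56 (SE 0.146, adjusted p = 0.0768), and no Dbp comparison passed. The day 3 change was 0.047 without day 3 phenformin replicate 1 and 0.43 without replicate 2. Without day 14 phenformin replicate 1, the lowest of its group, the day 14 change was 1.06 with adjusted p = 0.044 and that over both days was 0.65 with adjusted p = 0.026. Without day 3 phenformin replicate 2, also the lowest of its group, the change over both days was 0.65 with adjusted p = 0.0352. Leaving out the lowest array of the higher group raises the difference by construction. With each of the 16 arrays left out in turn, the day 14 change lay between 0.725 and 1.059. Its adjusted p reached 0.303, and 1 of the 16 fits passed. Over both days 2 of the 16 passed, with adjusted p up to 0.151. The day 14 change exceeded that of day 3 by 0.62 (SE 0.292), with adjusted p = 0.706 for this difference.

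Hlf, a PAR bZIP factor that is also rearranged in human leukaemia, had lower means in treated than in control hearts. On day 3 its control arrays read 5.89, 6.29, 6.03 and 5.45, and its phenformin arrays 5.60, 5.75, 5.53 and 5.50. Control replicate 4 was the lowest of these 8 arrays, so the groups overlapped. On day 14 the controls read 5.82, 5.82, 5.95 and 5.63, and the treated arrays 5.57, 5.41, 5.50 and 5.59, all below the controls. The change was -0.32 on day 3 (SE 0.133, adjusted p = 0.427), -0.29 on day 14 (SE 0.133, adjusted p = 0.455) and -0.30 over both days (SE 0.0941, 95% CI -0.50 to -0.10, adjusted p = 0.141). Without day 3 control replicate 4 the change over both days was -0.38 and passed with adjusted p = 0.0194. That array was the lowest control of day 3, so leaving it out widens the difference by construction. With each of the 16 arrays left out in turn, the change over both days lay between -0.381 and -0.24. Its adjusted p reached 0.246, and 1 of the 16 fits passed. The day 3 change was smaller in size without day 3 control replicate 2 (-0.20), without replicates 2 and 3 together (-0.074) and with the immediate early list as a covariate (-0.052).

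Tef, the PAR bZIP factor named for its part in thyrotroph cells of the pituitary, moved little. Its 16 arrays spanned 0.52 log2 units, from 6.16 to 6.68, the narrowest range of the 7 members. The control mean was 6.37 ± 0.15 on day 3 and 6.60 ± 0.0977 on day 14 (SD, n = 4). The treated means were 6.48 ± 0.0557 and 6.58 ± 0.0774. Its change with phenformin was 0.12 on day 3 (95% CI -0.051 to 0.29) and -0.020 on day 14 (95% CI -0.19 to 0.15), intervals narrower than those of the other members. None of the 3 PAR bZIP genes passed the test on either day, and differences between their changes were not tested.

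Over all 7 members, 1 had treated and control arrays that did not overlap on day 3 (Nfil3), against 6.21% of all genes, and 3 on day 14 (Dbp, Hlf and Nfil3), against 5.13% of all genes. The median change of the members was 0.0623 on day 3 and -0.02 on day 14, beside 0.000136 and -0.0298 over all genes.

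Bhlhe41, a repressor of CLOCK and BMAL1 also known for its part in sleep length in mammals, split the treated arrays of day 14. Those arrays read 8.59, 9.45, 9.40 and 9.31, and the day 14 controls read 8.43, 8.38, 8.67 and 8.55. Treated replicates 2, 3 and 4 were all above the controls, while replicate 1 lay among them. On day 3 the controls read 8.51, 8.54, 8.51 and 8.31, and the treated arrays 8.89, 8.47, 8.13 and 8.74, on both sides of the controls.

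The change of Bhlhe41 was 0.092 on day 3 (SE 0.174, 95% CI -0.28 to 0.46) and 0.68 on day 14 (SE 0.174, 95% CI 0.31 to 1.05), a 1.60-fold higher mean that did not pass with adjusted p = 0.146. Without day 14 phenformin replicate 1 the day 14 change was 0.88 with adjusted p = 0.0224, and that over both days was 0.49 with adjusted p = 0.0242 in place of 0.39 with adjusted p = 0.153. That array was the lowest of the higher group, so leaving it out raises the difference by construction. With each of the 16 arrays left out in turn, the day 14 change lay between 0.596 and 0.882. Its adjusted p reached 0.346, and 1 of the 16 fits passed. The day 14 change exceeded that of day 3 by 0.59 (SE 0.246, adjusted p = 0.665). Between treated hearts, day 14 exceeded day 3 by 0.63 (SE 0.174, adjusted p = 0.414).

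Bhlhe40, a repressor of the same family that also responds to low oxygen and to growth signals, spread widely in both groups of day 14. Its day 3 controls lay between 12.44 and 12.64 and its day 3 treated arrays between 12.24 and 12.56. The day 14 controls lay between 11.49 and 12.56 (SD 0.466) and the treated arrays between 11.65 and 12.66 (SD 0.47). The change was -0.13 on day 3 (SE 0.214, 95% CI -0.58 to 0.33) and 0.20 on day 14 (SE 0.214, 95% CI -0.25 to 0.65). The SE rests on the spread of all 4 groups, and with only the day 3 arrays fitted it was 0.089 for the day 3 change, which then had adjusted p = 0.724.

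Ciart, which encodes a repressor of BMAL1 and CLOCK that cycles in many tissues, read between 4.49 and 5.23 over the 16 arrays. Its change was 0.062 on day 3 (SE 0.14, 95% CI -0.23 to 0.36) and -0.029 on day 14 (SE 0.14, 95% CI -0.33 to 0.27). All 4 groups overlapped.

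Day 14 phenformin replicate 1 was the lowest array of its group for 5 of the 7 members, and day 3 control replicate 2 was the highest of its group for 5 of the 7. No other array was lowest or highest in its group for more than 3 members. The values of Dbp and Bhlhe41 without the first of these arrays are given above.

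Among control hearts, 0 of the 7 members passed between day 14 and day 3, where 0 of 22093 genes passed limma's test (0%) and 2091 had an unadjusted p under 0.05. The largest changes of the members were Bhlhe40 at -0.44 (SE 0.214, adjusted p = 0.555) and Tef at 0.23 (SE 0.0799, adjusted p = 0.347). Among treated hearts 0 of the 7 passed as well, against 0.00453% of all genes. There Dbp was 0.45 higher on day 14 than on day 3 (SE 0.206, adjusted p = 0.629). For the difference of the phenformin effect between days, 0 of the 7 members passed, and again 0 of 22093 genes passed limma's test (0%) and 1546 had an unadjusted p under 0.05.

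Some members varied together from array to array within groups. The deviations of each array from its group mean were compared over the 16 arrays, which share the array's overall signal and the animal. Hlf and Nfil3 deviated together (Pearson r = 0.72, Spearman rank correlation 0.70), and r was 0.515 without the 2 arrays farthest from the median of Hlf. In both day 3 groups their arrays ran in the same order. In day 14 controls they did not, as replicate 3 was highest for Hlf (5.947) and lowest for Nfil3 (6.276). Dbp and Bhlhe41 deviated together as well (r = 0.68, rank correlation 0.68), with r = 0.55 without the 2 farthest arrays. Bhlhe40 and Bhlhe41 had r = 0.59. Nfil3 had negative values with Ciart (r = -0.48) and Bhlhe40 (r = -0.44), which were -0.44 and -0.58 without the 2 farthest arrays. Dbp and Nfil3, an activator and a repressor of the same sequences, had r = -0.25. That value changed sign, to 0.169, without the 2 arrays farthest from the median of Dbp. These values describe the arrays and were not tested.

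**Figure D4:**
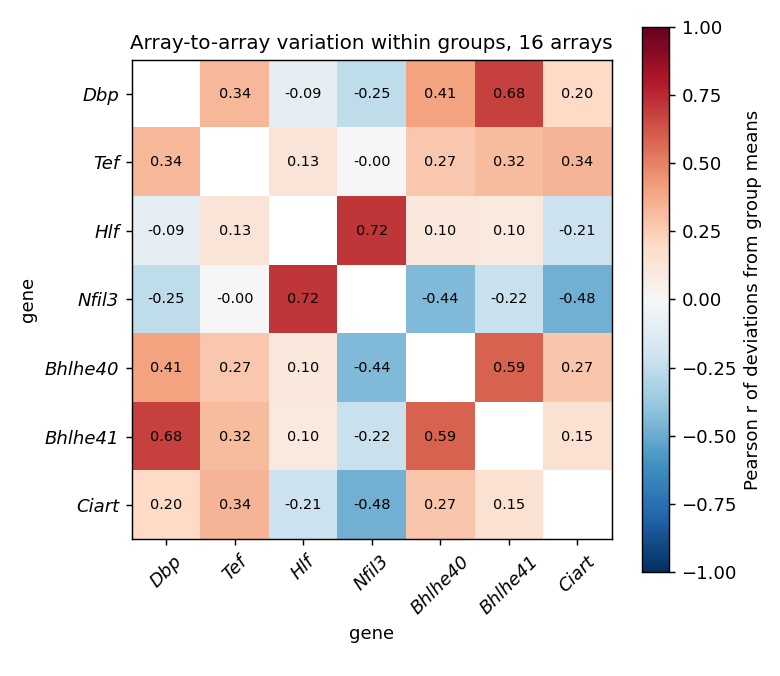
Pearson correlation of the deviations of each array from its group mean, for every combination of the 7 clock output factors over 16 arrays; red is positive and blue is negative. The deepest red squares are Hlf with Nfil3 (0.72) and Dbp with Bhlhe41 (0.68).

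For each member, the 3 genes with the highest correlation of level over all 16 arrays were found among 15625 genes at or above the 25th percentile of brightness, without provisional symbols. For Dbp these were the period gene Per3 (r = 0.895, rank correlation 0.88), the zinc finger gene Plag1 (r = 0.87) and the inositol phosphatase gene Impa2 (r = 0.86). Per3 kept r = 0.88 without the 2 farthest arrays, and its own change was 0.52 on day 14 (SE 0.15, adjusted p = 0.195). For Nfil3 they were the ubiquitin ligase gene Rnf34 (r = 0.935), the clock repressor gene Cry1 (r = 0.89) and Mpv17 (r = 0.865), which encodes an inner mitochondrial membrane protein. On deviations from group means r with Nfil3 was 0.855 for Rnf34, 0.56 for Cry1 and 0.635 for Mpv17. The Rnf34 change over both days was -0.33 (SE 0.0665, adjusted p = 0.0239). That call was lost without any 1 of day 3 control replicate 2, day 3 phenformin replicates 1, 3 and 4, and day 14 phenformin replicates 2 and 3, with adjusted p between 0.0503 and 0.0578, and without day 3 control replicates 2 and 3 together (0.141). It was also lost with array medians aligned (0.0621) and with the immediate early covariate (0.501).

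For Hlf the genes were the period gene Per1 (r = 0.88), Abra (r = 0.865) and the cell cycle kinase gene Wee1 (r = 0.86). Day 3 control replicate 2 was highest for Hlf, and without the 2 farthest arrays these correlations were 0.781, 0.805 and 0.743. For Bhlhe41 they were Helb, a DNA helicase gene (r = 0.90), Ift70b (r = 0.89) and Dohh (r = 0.87). For Tef they were Fry, Kcnj11 and Lamtor2, each with r = 0.87, and for Ciart Tvp23a, Zfp385c and Aire, with r between 0.83 and 0.85. Without the 2 farthest arrays, r was 0.832, 0.76 and 0.735 for the Bhlhe41 genes in that order. It was then 0.938, 0.722 and 0.672 for those of Tef, and 0.741, 0.785 and 0.734 for those of Ciart. Bhlhe40 had the lowest correlations, 0.78 with Thoc2l, 0.765 with Pdzd2 and 0.74 with Lats1, and the first 2 were 0.535 and 0.49 without the farthest arrays.

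The core of the clock, a list of 13 genes of which 12 were measured here, held more genes past the test than the shorter list of 7 output factors did. On day 3, when 0.566% of all genes passed, 2 of the 12 rose and 3 fell: Nr1d2 by 2.10 and Nr1d1 by 3.10 upward, Cry1 by -0.94, Per2 by -0.98 and Per1 by -1.86. On day 14, when 0.0724% of all genes passed, 2 rose and 1 fell, Nr1d2 (2.00), Nr1d1 (2.44) and Cry1 (-0.84). Over both days, against 1.21% of all genes, 2 rose and 4 fell, now with Bmal1 at -0.57 (SE 0.106, adjusted p = 0.0174). The list's median change was -0.11 on day 3 and -0.021 on day 14. Over both days together Nfil3, Cry1, Per1, Per2 and Bmal1 fell while both REV-ERB genes rose. Whether these changes are linked was not tested, and the hour of killing is not given. The Per1 call of day 3 was lost without day 3 control replicate 1, 2 or 3 or any 1 day 3 phenformin array (adjusted p up to 0.0968), and that of Per2 without day 3 control replicate 2 or phenformin replicate 4 (up to 0.0556). On day 14 the Cry1 call was lost without control replicate 1 or 3 or phenformin replicate 3 (up to 0.102), and that of Nr1d1 without control replicate 1 or phenformin replicate 3 (up to 0.0655). The day 14 Cry1 call was also lost with array medians aligned (0.115), no mean-variance trend (0.0601), the replicate block (0.0541) or the mean of its probe sets (0.0553). With only the compared arrays fitted, Cry1 (0.0558) and Nr1d1 (0.0558) on day 14 and Per1 on day 3 (0.0702) were lost. Without day 3 control replicates 2 and 3 together, of the 5 core clock calls of day 3 that of Nr1d2 held, while Per1 (adjusted p = 0.451), Per2 (0.266), Cry1 (0.106) and Nr1d1 (0.0515) no longer passed. Their changes were then -1.205, -0.708, -0.783 and 2.936. Over both days Bmal1 (0.0887) and Per1 (0.0509) no longer passed without these 2 arrays. Of all 22093 genes, 3 then passed on day 3 (125 as reported) and 33 over both days (267 as reported). With the immediate early list as a covariate the same 4 day 3 calls were lost (adjusted p between 0.138 and 0.928), as were Cry1 (0.0734) and Nr1d1 (0.0571) on day 14 and Bmal1 (0.331), Per1 (0.443), Per2 (0.273) and Cry1 (0.0745) over both days. That fit called 2 of all genes on day 3, 4 on day 14 and 3 over both days.

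Of 10 other clock output genes, which cycle in many tissues or depend on PAR bZIP factors in rodents, 0 passed limma's test on day 3 (4 had an unadjusted p under 0.05, as did 9.36% of all genes) and 0 on day 14 (3 unadjusted, against 10.8% of all genes). Their median change was -0.18 on day 3 and -0.28 on day 14. Over both days 3 of the 10 fell past the test and 0 rose, when 1.21% of all genes passed. These were named after their values were seen: Tsc22d3, a gene induced by glucocorticoids (-0.57, SE 0.109), the deubiquitinase gene Usp2 (-0.54, SE 0.108, adjusted p = 0.0242) and Wee1 (-0.46, SE 0.0894). All 3 calls were lost without day 3 control replicates 2 and 3 together, with adjusted p between 0.114 and 0.13, and with the immediate early covariate, with adjusted p between 0.548 and 0.717. They were also lost with array medians aligned, with adjusted p between 0.0602 and 0.0643. That of Usp2 was lost as well without 1 of 4 single arrays (day 3 control replicate 2, day 14 control replicate 3, day 3 phenformin replicate 4 or day 14 phenformin replicate 3, up to 0.0529).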

How the data were processed

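RNA was labelled from 300 ng per sample and hybridised to arrays by an Affymetrix protocol, per the labels' protocols. The authors deposited linear intensities for 68842 probe sets on each array, and the submitters' processing notes name RMA without its role. The largest intensity lay between 999968 and 999973 on every array, while array medians differed. RMA's version, the genome build and how the values reached a linear scale are not given in the sources used here. Log2 was taken without further normalisation. The platform annotation gave 1 symbol to 23446 probe sets and several to 505, while 44891 were unnamed here. The brightest probe set stood for each of 22093 genes, and no filter was applied.

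All genes were fitted with limma 3.58.1 in R 4.3.3 (with data.table, version 1.17.8): 1 mean per group over 16 arrays, moderation with a mean-variance trend, two-sided tests and Benjamini-Hochberg adjustment across all genes. The fit was also run on simulated data with independent noise for each gene and array. Such data lack variation that genes share on an array, so that run does not test the calls above. All members are named; list genes are named where they passed, at most 6 a comparison by smallest p, and exceptions are marked. Members, lists and tests were chosen with earlier results of these data known. The alternatives were other brightness filters, normalisations, moderations, probe set rules, thresholds, covariates and samples. Leaving out 2 arrays that stood apart was chosen after seeing the data.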

Additional observations from a re-analysis of the deposited data

Results flagged for a closer look

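Of the 28 sets of 4 arrays (7 members in 4 groups), 2 held an array far from the other 3, both for Bhlhe41. Chance alone flags about 1 in 20 such sets. In day 3 controls the lowest array, replicate 4, had a level of 8.308 and its gap to the next array was 0.84 of the group's range. In day 14 phenformin arrays the lowest, replicate 1, had a level of 8.589 and a gap of 0.838 of the range, both just past the critical value of Dixon's test for 4 arrays. The second array is the one without which the day 14 change of Bhlhe41 passed, at 0.88 with adjusted p = 0.0224 in limma's test.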

How the results depend on the processing

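Of 1335 values of 46 gene results under other settings, 1233 kept their direction and side of the threshold, 72 lost the call, 8 gained one and 22 changed sign, all of the last for Tef, Bhlhe40, Bhlhe41 or Ciart. Counts over all genes ranged from 2 to 181 on day 3 (125 as reported), 1 to 60 on day 14 (16) and 3 to 413 over both days (267). They ranged from 0 to 35 between days in controls (0 as reported), 0 to 3 in treated hearts (1) and 0 to 1 for the difference of the effects (0). The count of members past the test on day 3, 1 at first, was 0 with array medians aligned, only the compared arrays fitted, the replicate block, the immediate early covariate, all probe sets tested, an adjusted p under 0.01, a 1.5-fold minimum, or without the 2 arrays apart (chosen after seeing the data). Leaving out single arrays gave 0 to 1 there, 0 to 2 on day 14 and 1 to 3 over both days. With genes under the 50th percentile of brightness dropped (Hlf and Ciart among them), the count was 1 on day 14 (Nfil3, adjusted p = 0.0364) and 2 over both days (Dbp added, adjusted p = 0.0477). Over both days it was 0 with the covariate and 0 with the 1.5-fold minimum. Changes of sign were small: with the covariate Bhlhe40 was 0.148 on day 3 and Tef -0.027 over both days; with medians aligned Tef was 0.009 on day 14; with normal scores of ranks, on their own scale, Ciart was 0.002 on day 14; with array weights Ciart was -0.006 over both days; and without the 2 arrays apart Ciart was -0.033 on day 3 and -0.031 over both days. Leaving out single arrays moved Bhlhe41 on day 3 from -0.019 to 0.235, Ciart on day 3 from 0 to 0.143, Tef on day 14 from -0.068 to 0.005, Bhlhe40 on day 14 from -0.005 to 0.415, Ciart on day 14 from -0.186 to 0.063, Bhlhe40 over both days from -0.065 to 0.145 and Ciart over both days from -0.062 to 0.063. The causes were not tested. Replicate numbers do not pair the arrays (correlations of deviations from -0.19 to 0.22, the own number best in 15 of 48 cases); with the replicate block Nfil3 was -0.55 on day 3 (adjusted p = 0.0635) and -0.55 over both days (adjusted p = 0.0116). Fitting only the compared arrays gives no value over both days. Dim probe sets such as that of Ciart have little signal over background.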
